A study of Mus musculus with 11 samples.

Results

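The blood endothelial genes examined here are 10 genes long used to recognise the cells that line blood vessels: Vwf, Pecam1, Cdh5, Plvap, Kdr, Tek, Tie1, Emcn, Cldn5 and Egfl7. They were picked by name from the deposited count table, where each has 1 probe among 19965 endogenous probes, and all 10 were found and passed the filter on low counts. Values come from 11 regions of naive mouse mammary gland, 6 Pdpn-adjacent (numbered 2, 3, 4, 7, 8 and 11) and 5 SMA-adjacent (numbered 1, 5, 6, 9 and 10) by their labels. In each region, barcoded probes of the GeoMx mouse transcriptome panel were released by light from cells carrying ZsGreen, which in these lineage tracing mice marks cells that express or once expressed periostin. Pdpn (podoplanin) staining located lymphatic vessels, and SMA (smooth muscle actin) staining located ducts and blood vessels. All regions share the reporter and the tissue, and no treatment is named. The allele that drives the reporter and the strain, age and sex of the mice are not given in the sources used here. The glands came from 3 mice, and no label ties a region to a mouse. With more regions than mice in each group, mice must have given several. P-values over regions ignore this and may be too small, though how the mice are spread over the groups is not given. Endothelial transcripts are read here only as far as they lay inside the ZsGreen mask, and whether any endothelial cell carried the reporter was not measured. Fewer endothelial cells in a mask and less RNA per cell cannot be told apart in such pooled areas.

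Endothelial cells hold each other through VE-cadherin (Cdh5), PECAM-1 (Pecam1) and claudin-5 (Cldn5), and they store von Willebrand factor (Vwf), which tethers platelets to damaged vessel walls. They sense vascular endothelial growth factor through VEGFR2 (Kdr) and angiopoietins through TIE2 (Tek), whose partner TIE1 (Tie1) modulates it. Endomucin (Emcn) is a surface sialomucin of capillaries and veins, PLVAP (Plvap) forms the diaphragms of fenestrae and caveolae, and EGFL7 (Egfl7) is a matrix-bound protein that endothelial cells secrete. Pecam1, Cdh5, Tek and Tie1 are also made by lymphatic endothelium, and Vwf also by megakaryocytes and platelets.

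The depth of the regions limits what can be read. Total counts ran from 22757 to 2271664 in Pdpn-adjacent regions, with a median of 153818, and from 760761 to 3086323 in SMA-adjacent regions, with a median of 2048781. Pdpn-adjacent regions 2, 3 and 11 held 22757, 81760 and 30316 counts. The lowest value in the table is 1, and all 10 members stood at 1 in region 2, 9 of 10 did in region 11 and 2 of 10 in region 3. On the scale used below, counts scaled by library size and TMM factor (CPM), a single count is worth 37.5 CPM in region 2, 34.3 CPM in region 11 and 12.3 CPM in region 3, against 0.307 to 4.66 CPM in the other 8 regions. The limit that a count of 0 allows, 3 counts, is 113 CPM in region 2 and 103 CPM in region 11, more than the SMA-adjacent mean of 7 of the 10 members, so these 2 regions could not show whether those members were lower. Background was read from 210 negative-control probes, whose geometric mean corresponds to 26.0 to 39.4 CPM in the 11 regions. Levels over background below are counts divided by that mean. A value was called above the floor when it exceeded the mean of the negative probes by 2 SDs on the log2 scale.

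Blood endothelial transcripts were low in the periostin-lineage masks of both groups, and clearest in SMA-adjacent regions 1, 9 and 10. Averaged over the 10 members, the level was 0.952, 1.39, 1.60, 1.98, 3.14 and 0.978 times background in Pdpn-adjacent regions 2, 3, 4, 7, 8 and 11, against 3.55, 1.74, 2.03, 3.65 and 3.95 times in SMA-adjacent regions 1, 5, 6, 9 and 10. Pdpn-adjacent region 8 therefore lay above SMA-adjacent regions 5 and 6, and the groups overlap. Of single values, 8 of 60 in Pdpn-adjacent and 26 of 50 in SMA-adjacent regions were above the floor, beside 10.1% and 14.4% of the values of all endogenous probes. The 8 include Pecam1 at 2 counts in region 11. Vwf and Cdh5 were above it in all 5 SMA-adjacent regions, and Plvap in none of the 11. The median over regions exceeded 2 times background for 1 of the 10 members in Pdpn-adjacent regions, namely Cdh5, and for 7 in SMA-adjacent regions. Over all probes tested those shares were 11.6% and 18.0%.

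**Figure D1:**
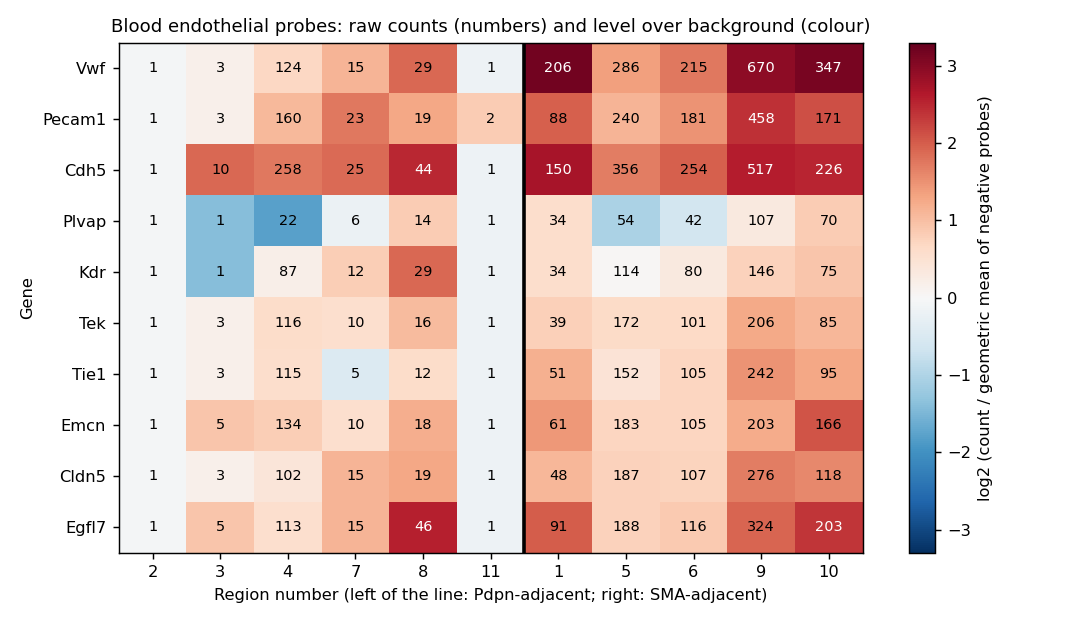
Raw count (number in each cell) and log2 level over the geometric mean of the negative probes (colour) of the 10 blood endothelial probes in 6 Pdpn-adjacent (left) and 5 SMA-adjacent (right) regions. Vwf and Cdh5 are the reddest rows in SMA-adjacent regions 1, 9 and 10, and all 10 members stand at a count of 1 in region 2.

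No member passed the threshold of the test across all probes, an edgeR quasi-likelihood adjusted p of 0.05. Of 19935 probes tested, 2 passed (0.0100%), both higher in Pdpn-adjacent regions and neither a member. With DESeq2 17 probes passed (0.0853% of the 19935 fitted), 1 of them a member (Vwf), and with limma-voom 0 did. DESeq2 gave 6 members no adjusted p, so its adjusted p-values are over fewer probes than those of edgeR. At an unadjusted edgeR p under 0.05, 5 of the 10 members were lower in Pdpn-adjacent regions (Vwf, Tie1, Pecam1, Plvap and Cldn5) and 0 were higher, where 3.19% of all probes were lower at that level. Of these 5, Plvap was above the floor in no region, and its log2 difference was 0.18 without Pdpn-adjacent region 4. The log2 fold change, Pdpn-adjacent minus SMA-adjacent, was below 0 for 9 of the 10 members, against 48.8% of all probes, and its median was -0.47 for the members and 0.01 for all probes. With the share of negative-probe counts as a covariate the members' median was -0.29. These members were chosen with earlier results of the same data known, so their counts are a description. An exact two-sided permutation test of mean log2 CPM, which weights the regions equally, gave a p under 0.05 for 6 members, all lower, and for 3.90% of all probes in that direction. Adjusted over all probes, 0 of the 19935 passed the permutation test, whose smallest possible p is 0.00216. Without regions 2, 3 and 11, 0 of the 10 members had an exact permutation p under 0.05, as 2.89% of all probes did on the lower side, with 0.0179 the smallest p that 3 against 5 regions allow. No member was free of overlap, with the 6 Pdpn-adjacent values all below the 5 SMA-adjacent ones, whereas 0.391% of all probes were. All of these p-values may be too small to the extent that regions share a mouse.

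**Figure D2:**
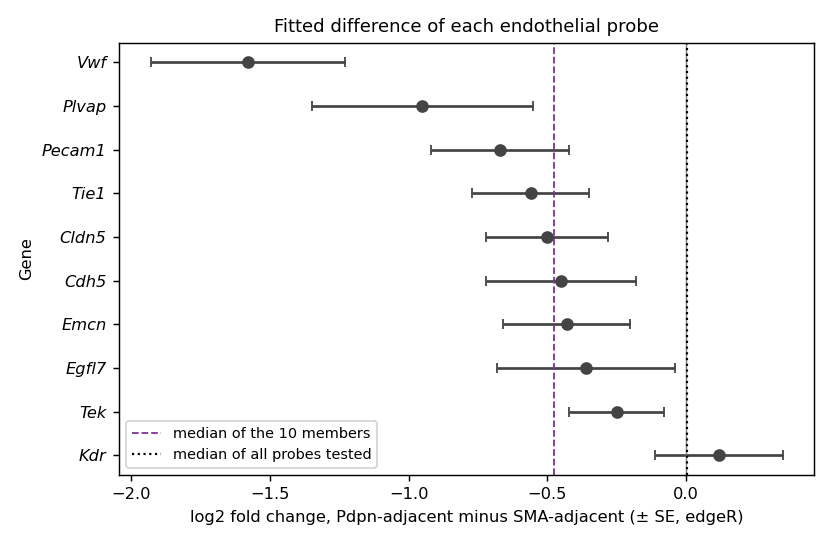
edgeR log2 fold change, Pdpn-adjacent minus SMA-adjacent, of each member with its standard error (SE), sorted by value. Vwf stands lowest at -1.58 and Kdr highest at 0.12; the dashed line marks the members' median of -0.47 and the dotted line the median of all probes at 0.01.

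Vwf differed most between the groups among the 10. Its probe targets chr6:125566212-125566249 on GRCm38.p6, inside the gene. It stood at 34.3 CPM at the lowest, 45.4 CPM in the median and 96.3 CPM at the highest in Pdpn-adjacent regions, against 272, 87.9, 107, 231 and 257 CPM in SMA-adjacent regions 1, 5, 6, 9 and 10. Only region 8 of the Pdpn-adjacent set reached the SMA-adjacent range, where in CPM it passed region 5 alone. SMA-adjacent regions 1, 9 and 10 formed a high set at 7.76 to 9.11 times background, and regions 5 and 6 stood at 2.57 and 3.34 times. On that scale Pdpn-adjacent region 8, at 3.71 times, passed both regions 5 and 6. A further scale subtracted the arithmetic mean of the negative probes and replaced the library scaling. It divided each result by the summed excess of all probes over that mean. On it regions 4, 7 and 8 stood at 52.9, 79.4 and 149, all below the lowest SMA-adjacent value of 180. The overlap of region 8 therefore depended on the scale. Background subtraction with the CPM scaling kept was not tested, so the part of background in the overlap is not known. Means were 54.7 ± 24.5 CPM (SD, n = 6) in Pdpn-adjacent and 191 ± 86.8 CPM (SD, n = 5) in SMA-adjacent regions. In the edgeR fit the log2 difference was -1.58 ± 0.35 SE (adjusted p = 0.0989), rank 25 of all probes by p. It was called lower with DESeq2 (-1.61, adjusted p = 0.0104) and with edgeR when SMA-adjacent region 5 was left out (-1.77, edgeR adjusted p = 0.0187, with 0.267% of all probes called), and in none of the other 19 alternative fits. The exact permutation p was 0.00649, and 0.609 adjusted over all probes. Without regions 2, 3 and 11 the exact permutation p was 0.0536. The shallow regions bear on this gene more than on the others: at the SMA-adjacent mean, region 3 would hold 15.5 counts of Vwf and held 3, region 2 would hold 5.08 and held 1, and region 11 would hold 5.57 and held 1. The sharing of mice may make these p-values too small.

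The junction genes were lower in the means of Pdpn-adjacent regions, with overlap between the groups. Cdh5 (probe at chr8:104125569-104125604) gave the most counts of the 10 probes in regions 3, 4, 5, 6 and 7. It stood at 37.5, 123, 111, 116, 146 and 34.3 CPM in regions 2, 3, 4, 7, 8 and 11, against 198, 109, 126, 179 and 167 CPM in SMA-adjacent regions 1, 5, 6, 9 and 10. Outside the shallow regions 2 and 11, every Pdpn-adjacent region therefore lay above SMA-adjacent region 5 in CPM. On the background-subtracted and rescaled values used for Vwf, regions 4, 7 and 8 stood at 231, 191 and 260, against a lowest SMA-adjacent value of 239. On that scale regions 4 and 7 lay below the SMA-adjacent range. For Cdh5, edgeR gave a difference of -0.45 ± 0.27 SE on the log2 scale (adjusted p = 0.925, exact permutation p = 0.0649). Pecam1 (probe at chr11:106699746-106699781) had 37.0 CPM at the lowest, 65.8 CPM in the median and 107 CPM at the highest in Pdpn-adjacent regions, against 116, 73.8, 89.8, 158 and 126 CPM in the SMA-adjacent regions in the same order. Only region 7 of the Pdpn-adjacent set reached the SMA-adjacent range, above regions 5 and 6. The fitted log2 difference of Pecam1 was -0.67 ± 0.25 SE (edgeR adjusted p = 0.694), with an exact permutation p of 0.0260, and 0.161 without regions 2, 3 and 11. Cldn5 (probe at chr16:18776999-18777033), the claudin of endothelial tight junctions, had 34.3, 40.7 and 69.8 CPM at the lowest, median and highest in Pdpn-adjacent regions, against 63.3, 57.5, 53.1, 95.4 and 87.2 CPM in SMA-adjacent ones. Regions 7 and 8 reached the range of the SMA-adjacent regions. For Cldn5 the fitted log2 difference was -0.50 ± 0.22 SE (edgeR adjusted p = 0.769), with an exact permutation p of 0.0411, and 0.375 without regions 2, 3 and 11, and the difference was -0.28 without Pdpn-adjacent region 4. Regions of one mouse are not independent, so these p-values may be too small.

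**Figure D3:**
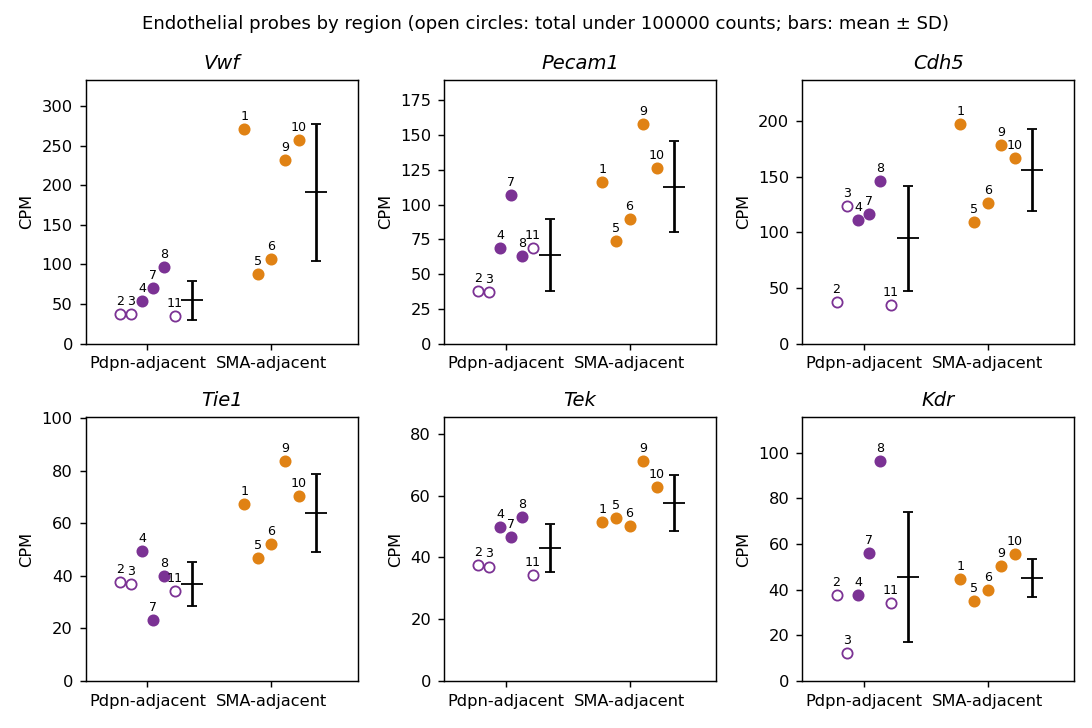
CPM of 6 members in each Pdpn-adjacent (left) and SMA-adjacent (right) region, numbered by region, with the mean and SD of each group beside the points and open circles for the 3 regions under 100000 counts. Vwf reaches 231 to 272 CPM in SMA-adjacent regions 1, 9 and 10 and at most 96.3 CPM in Pdpn-adjacent regions, whereas Kdr spans 12.3 to 96.3 CPM in Pdpn-adjacent and 35.0 to 55.4 CPM in SMA-adjacent regions.

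The receptors stood near background and did not move as one. Kdr (probe at chr5:75972390-75972427) had 12.3, 37.5 and 96.3 CPM at the lowest, median and highest in Pdpn-adjacent regions, against 44.8, 35.0, 39.7, 50.4 and 55.4 CPM in SMA-adjacent regions 1, 5, 6, 9 and 10. Its highest values were those of Pdpn-adjacent regions 8 and 7, at 29 counts (95% exact Poisson interval 19.4 to 41.6, which covers counting error only) and 12 counts. The fitted log2 difference was 0.12 ± 0.23 SE (edgeR adjusted p = 1.00, exact permutation p = 0.662), and it was -0.21 without Pdpn-adjacent region 8 and 0.56 without region 4. Tek (probe at chr4:94811344-94811379) had 34.3, 42.1 and 53.2 CPM at the lowest, median and highest in Pdpn-adjacent regions, against 51.4, 52.9, 50.1, 71.2 and 62.8 CPM in SMA-adjacent ones. It was the steadiest member, with an SD of 15.7% of the mean over SMA-adjacent regions. Tek differed by -0.25 ± 0.17 SE on the log2 scale (edgeR adjusted p = 0.928), with an exact permutation p of 0.0260, and 0.214 without regions 2, 3 and 11, and the difference was -0.15 without SMA-adjacent region 9. Tie1 (probe at chr4:118486643-118486680) had 23.3, 37.3 and 49.5 CPM in Pdpn-adjacent regions, against 67.2, 46.7, 52.1, 83.6 and 70.2 CPM in SMA-adjacent ones. Only Pdpn-adjacent region 4 reached the SMA-adjacent range, but regions 2 and 11 held 1 count each and could not show a lower level. Tie1 differed by -0.56 ± 0.21 SE on the log2 scale (edgeR adjusted p = 0.676), with an exact permutation p of 0.00649, and 0.0536 without regions 2, 3 and 11, and the difference was -0.91 without Pdpn-adjacent region 4. The sharing of mice may make these p-values too small.

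The 250 bases before the start of Tie1 (RefSeq, GRCm38.p6), the receptor gene with the largest fitted difference of these 3, are shown with letters that Egfl7 also carries. Capitals mark AGGAAG or its reverse complement CTTCCT, letters at the core of many binding sites of ETS factors, a family with known roles in endothelial genes. Tie1 has the letters once, starting 219 bases before the gene's start. Of 32851 promoter windows of the same length in the table, 29.5% hold them on either strand. The Tie1 window lies on the minus strand at chr4:118489850-118490099.
Tie1: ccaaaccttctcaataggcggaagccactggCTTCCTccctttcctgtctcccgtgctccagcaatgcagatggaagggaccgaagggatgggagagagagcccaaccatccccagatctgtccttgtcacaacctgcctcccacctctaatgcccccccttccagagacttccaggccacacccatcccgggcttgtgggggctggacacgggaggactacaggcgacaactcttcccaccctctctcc

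The surface and diaphragm genes differed in how far they could be read. Emcn (probe at chr3:137372776-137372811) had 34.3, 52.1 and 61.7 CPM at the lowest, median and highest in Pdpn-adjacent regions, against 80.4, 56.2, 52.1, 70.1 and 123 CPM in SMA-adjacent regions 1, 5, 6, 9 and 10. Its highest value, in region 10, was 4.21 times background, and 3 of the 6 Pdpn-adjacent values lay under the whole SMA-adjacent range. Of these, regions 2 and 11 held 1 count each and could not show a lower level, which leaves region 7 at 46.6 CPM from 10 counts. The fitted log2 difference of Emcn was -0.43 ± 0.23 SE (edgeR adjusted p = 0.898), with an exact permutation p of 0.0476, and 0.250 without regions 2, 3 and 11, and the difference was -0.18 without SMA-adjacent region 10. Plvap (probe at chr8:71511633-71511668) had 9.47, 31.1 and 46.5 CPM in Pdpn-adjacent regions, against 44.8, 16.6, 20.8, 37.0 and 51.8 CPM in SMA-adjacent ones. It stayed at or below 1.79 times background everywhere, and in the deep regions 4, 5 and 6 it counted 0.287, 0.486 and 0.653 times background. Plvap was therefore not detectable above the negative probes at this depth. The fitted log2 difference of -0.95 ± 0.40 SE (edgeR adjusted p = 0.761, exact permutation p = 0.483) was 0.18 without Pdpn-adjacent region 4. The p-values may be too small where regions share a mouse.

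Egfl7 (probe at chr2:26589092-26589127) had its highest value in a Pdpn-adjacent region. It stood at 37.5, 61.7, 48.6, 69.8, 153 and 34.3 CPM in Pdpn-adjacent regions 2, 3, 4, 7, 8 and 11, against 120, 57.8, 57.6, 112 and 150 CPM in SMA-adjacent regions 1, 5, 6, 9 and 10. The value in region 8 came from 46 counts, with a 95% exact Poisson interval of 33.7 to 61.4. For Egfl7 the fitted log2 difference was -0.36 ± 0.32 SE (edgeR adjusted p = 0.986, exact permutation p = 0.175), and it was -0.87 without region 8, -0.04 without region 4 and -0.17 without SMA-adjacent region 10. Shared mice may make the p-values too small. The Egfl7 gene spans chr2:26581083-26592682 and holds the hairpin of the endothelial microRNA miR-126a at chr2:26591357-26591429 on the same strand. The panel has no probe named for it, so the Egfl7 probe is the only reading of this locus here. The mature 3′ arm, mmu-miR-126a-3p at chr2:26591402-26591423, is given with its seed (bases 2 to 8) in capitals. The 250 bases before the first of the 3 listed starts of Egfl7, at chr2:26580833-26581082 on the plus strand, are shown with the ETS core letters in capitals as above. They hold those letters 3 times, starting 216, 89 and 49 bases before the start, more often than any other window listed for the 10 members. Promoter windows were found for 6 of the 10 members.
mmu-miR-126a-3p: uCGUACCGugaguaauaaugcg
Egfl7: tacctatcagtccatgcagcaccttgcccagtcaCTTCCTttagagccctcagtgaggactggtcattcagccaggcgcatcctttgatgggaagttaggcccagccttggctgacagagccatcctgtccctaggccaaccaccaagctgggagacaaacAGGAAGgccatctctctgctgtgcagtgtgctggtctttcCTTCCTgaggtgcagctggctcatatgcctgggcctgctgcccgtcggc

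Among themselves the members varied together across regions, Kdr least so. Spearman's rho between log2 CPM values of 2 members had a median of 0.68 over 45 pairs and all 11 regions, and 0.62 over the 8 regions above 100000 counts. Pearson's r of log2 CPM over those 8 regions had a median of 0.66 and ran from -0.23 to 0.94. The highest was that of Plvap with Egfl7. Plvap, above the floor in none of the 11 regions, had a median r of 0.68 with the other 9 members. A high r between members therefore did not require detection above background. The median Pearson's r with the other 9 members was 0.76 for Vwf, 0.70 for Egfl7 and Cldn5, 0.49 for Tie1 and 0.14 for Kdr. These regions share background and depth, and the correlations are a description. The make-up of the members' counts also differed. Vwf made up 11.8% of the summed member counts at most in Pdpn-adjacent regions 4, 7 and 8, and 14.8% at least in SMA-adjacent regions. Kdr made up 7.07% to 11.8% in those Pdpn-adjacent regions and 4.24% to 6.13% in SMA-adjacent regions. Per count of Cdh5 there were 0.481, 0.600 and 0.659 counts of Vwf in Pdpn-adjacent regions 4, 7 and 8, against 1.37, 0.803, 0.846, 1.30 and 1.54 in SMA-adjacent regions 1, 5, 6, 9 and 10. Per count of Tek there were 0.991, 0.50 and 0.750 counts of Tie1 in the same Pdpn-adjacent regions, against 1.31, 0.884, 1.04, 1.17 and 1.12. The Vwf to Cdh5 ratios of these regions did not overlap between the groups, and the Tie1 to Tek ratios did. Per count of Pecam1 the Vwf ratios overlapped, at 0.652 to 1.53 in Pdpn-adjacent regions 4, 7 and 8 and 1.19 to 2.34 in SMA-adjacent regions. Of all 45 member pairs, 7 had ratios without overlap over these 8 regions, and each of the 7 held Vwf or Kdr. The 45 pairs share genes, and the share over pairs of all probes was not worked out, so the 7 cannot be judged against it. The shallow regions 2 and 11, with 1 count of Vwf and 1 of Cdh5 each, were left out. The printed ratios were chosen after their values were seen and were not tested, and they are free of library scaling but not of background.

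Other endothelial genes, taken from lists, stood at like levels in the same regions. Of 15 further pan-endothelial genes, 0 passed the edgeR threshold, 15 had a log2 fold change below 0 and the median was -0.33. Their mean level was 0.952 to 3.02 times background in the Pdpn-adjacent group and 1.88 to 4.03 times in the SMA-adjacent one. Cd34, a surface sialomucin that fibroblasts make as well, averaged 75.3 ± 27.5 CPM (SD, n = 6) in Pdpn-adjacent and 138 ± 37.6 CPM (SD, n = 5) in SMA-adjacent regions, with a log2 difference of -0.72 ± 0.26 SE (edgeR adjusted p = 0.657). Mmrn2, an endothelial matrix protein, had -0.83 ± 0.30 SE (edgeR adjusted p = 0.657). Of 10 genes of the VEGF and TIE pathway, 0 passed and the median was -0.27. The smallest p there was that of Ptprb, the phosphatase that acts on TIE2 and VE-cadherin, at 37.5, 37.0, 62.0, 79.2, 103 and 34.3 CPM in Pdpn-adjacent regions 2, 3, 4, 7, 8 and 11, against 182, 86.7, 93.8, 192 and 246 CPM in SMA-adjacent regions 1, 5, 6, 9 and 10. Region 8 lay above SMA-adjacent regions 5 and 6, while regions 4 and 7 lay under the whole SMA-adjacent range. Regions 2, 3 and 11 held 1, 3 and 1 counts of it, too few to place regions 2 and 11. Ptprb differed by -1.18 ± 0.32 SE on the log2 scale (edgeR adjusted p = 0.256). Nrp2, a neuropilin co-receptor, had -0.43 ± 0.21 SE (edgeR adjusted p = 0.827). The sharing of mice may make these p-values too small.

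Transcription factors and markers of arteries, veins and capillaries likewise gave no call. For 9 tested of 10 endothelial transcription factors, the median log2 fold change was -0.17. Fli1, an ETS factor, stood at 12.3 to 37.5 CPM in Pdpn-adjacent and 40.6 to 69.5 CPM in SMA-adjacent regions, without overlap, as 0.391% of all probes did on the lower side. Regions 2, 3 and 11 held 1 count of it each, at which regions 2 and 11 could not show a lower level, and its highest value was 2.38 times background (log2 difference -0.74 ± 0.19 SE, edgeR adjusted p = 0.205). Sox18, a factor of arterial and lymphatic development, had -0.66 ± 0.23 SE (edgeR adjusted p = 0.647). The median was -0.31 for 12 arterial genes, among them the elastic-fibre gene Fbln5 (-0.75 ± 0.23 SE, edgeR adjusted p = 0.452) and the Notch ligand Jag1 (-0.59 ± 0.19 SE, edgeR adjusted p = 0.586). It was -0.03 for 7 venous genes, with the venous factor Nr2f2 at -0.87 ± 0.27 SE (edgeR adjusted p = 0.476) and the selectin Sele at 0.23 ± 0.17 SE (edgeR adjusted p = 0.952). It was -0.13 for 11 capillary genes, with the water channel Aqp1 at -0.85 ± 0.39 SE (edgeR adjusted p = 0.780) and the receptor partner Ramp2 at -0.46 ± 0.26 SE (edgeR adjusted p = 0.921). Arterial genes were the nearest to background, at a mean of 0.952 to 1.29 times in the Pdpn-adjacent group and 1.11 to 1.75 times in the SMA-adjacent one. These p-values may be too small where regions share a mouse.

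Genes of several neighbouring cell types varied with the members across regions. Mural and smooth muscle genes, 12 in all, had a median log2 fold change of -0.46 with 0 calls, and a mean level of 1.26 to 3.88 times background in the Pdpn-adjacent group and 3.35 to 15.4 times in the SMA-adjacent one. Acta2, which encodes the stained smooth muscle actin and so only checks the labels, had 37.5, 74.1, 117, 321, 229 and 68.5 CPM in Pdpn-adjacent regions 2, 3, 4, 7, 8 and 11, against 688, 442, 534, 2609 and 1218 CPM in SMA-adjacent regions 1, 5, 6, 9 and 10. SMA-adjacent regions 1, 9 and 10, where the endothelial level was high, were also the 3 highest in Acta2. Myh11, the smooth muscle myosin, differed by -2.51 ± 0.49 SE on the log2 scale (edgeR adjusted p = 0.0667) and Mylk, myosin light chain kinase, -2.16 ± 0.45 SE (edgeR adjusted p = 0.0781). The 8 fibroblast genes had a median of -0.60 with 0 calls and a mean level of 0.952 to 8.15 times background in the Pdpn-adjacent group and 4.83 to 13.7 times in the SMA-adjacent one. Among them Col1a2, a collagen chain, had -1.19 ± 0.49 SE (edgeR adjusted p = 0.761), Pi16 had -0.58 ± 0.21 SE (edgeR adjusted p = 0.657) and Postn, the reporter gene of the lineage, had -0.16 ± 0.27 SE (edgeR adjusted p = 1.00). Over the 8 deeper regions, Pearson's r between the members' mean log2 level over background and that of a list was 0.99 for the other pan-endothelial genes, 0.95 for fibroblast genes, 0.77 for mural genes, 0.81 for lymphatic genes and -0.15 for luminal epithelial genes. It was 0.89 with the share of counts above background. Over the same 8 regions that share ran from 26.0% to 41.4% in Pdpn-adjacent and 21.6% to 41.6% in SMA-adjacent regions. In the shallow regions 2, 3 and 11, which did not enter, it was 6.00%, 18.8% and 22.2%. The part of these neighbours and of the share above background in the members' differences was not tested. The p-values may be too small where regions share a mouse.

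**Figure D4:**
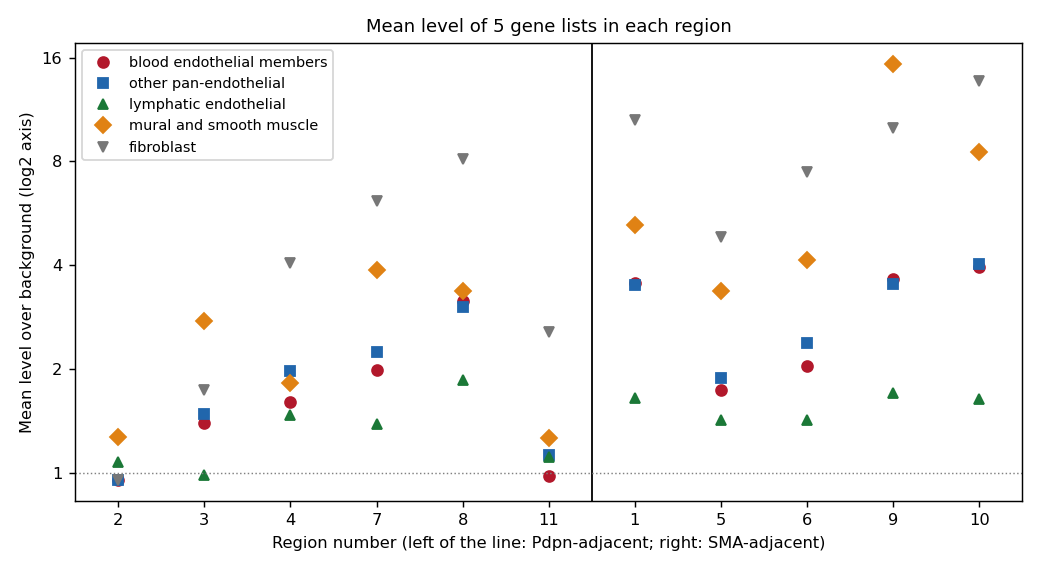
Mean level over background of the 10 members and of 4 other lists in 6 Pdpn-adjacent (left) and 5 SMA-adjacent (right) regions, on a log2 axis with the background level of 1 dotted. The members track the 15 other pan-endothelial genes, at 3.14 and 3.02 times background in region 8 and 3.95 and 4.03 times in region 10, while lymphatic genes stay between 0.985 and 1.85 times.

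Of the lymphatic, blood cell, epithelial and muscle genes listed, 1 was called. The 8 lymphatic endothelial genes had a median log2 fold change of -0.06 with 0 calls, and 0 of them had a median above 2 times background in either group. Of these, Flt4, the receptor for lymphatic growth factors, had -0.16 ± 0.17 SE (edgeR adjusted p = 1.00), Sned1 had 0.17 ± 0.17 SE (edgeR adjusted p = 1.00) and Pdpn itself had -0.19 ± 0.28 SE (edgeR adjusted p = 1.00). Of 11 listed blood cell genes 9 were measured, with a median of -0.08 and 0 calls. The platelet genes Itga2b, Gp1ba and Gp9 reached at most 1.15 times background in SMA-adjacent regions. In Pdpn-adjacent regions they reached at most 2.25 times, which was Itga2b at 6 counts in region 3. Pf4, a platelet chemokine, reached 2.97 times in SMA-adjacent and 3.00 times in Pdpn-adjacent regions, with a log2 difference of -0.18 ± 0.18 SE (edgeR adjusted p = 1.00). The part of platelets in the Vwf counts was not tested. Hba-a1, an alpha globin of red cells whose probe may also read its near-identical copy, had 37.0 to 2454 CPM in Pdpn-adjacent and 1798 to 5657 CPM in SMA-adjacent regions, a log2 difference of -2.10 ± 1.18 SE (edgeR adjusted p = 0.911). Its order in the SMA-adjacent regions, highest in region 6, was not that of the members. The 8 luminal epithelial genes had a median of 0.83 with 1 call higher, Csn3 (0.98 ± 0.17 SE, edgeR adjusted p = 0.0413), and Foxa1 at 0.75 ± 0.14 SE (edgeR adjusted p = 0.0620). The 8 skeletal muscle genes had a median of 2.21 with 0 calls, led by Myh1 (3.01 ± 0.68 SE, edgeR adjusted p = 0.108) and Mylpf (2.52 ± 0.76 SE, edgeR adjusted p = 0.451). Their mean level was uneven, at 5.59, 91.3, 1.08, 41.6, 5.09 and 1.56 times background in Pdpn-adjacent regions 2, 3, 4, 7, 8 and 11. It was 1.08 to 11.6 times in SMA-adjacent regions, and the exact permutation p of Myh1 was 0.416. Shared mice may make these p-values too small.

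The genes whose pattern lay closest to the members' mean were sought among 875 other probes with a mean of at least 100 CPM over the 8 deeper regions. Pearson's r of log2 CPM with the mean of the 10 members over those 8 regions was 0.97 for Ahnak, a large scaffold protein, 0.97 for Ptprb, 0.96 for Cavin2, a caveolar coat protein, 0.96 for the G protein subunit Gnai2, and 0.96 for the ribosomal protein gene Rpl26. Of these 5, Ptprb alone belongs to an endothelial list used here. Cavin2 ran from 77.0 to 120 CPM in Pdpn-adjacent regions 4, 7 and 8 and from 68.2 to 155 CPM in SMA-adjacent regions, and Ahnak from 107 to 146 CPM in those 3 Pdpn-adjacent regions and from 106 to 238 CPM in SMA-adjacent regions. Both genes overlapped between the groups.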

How the data were processed

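Frozen mammary gland sections from 3 mice were hybridised with GeoMx whole-transcriptome probes, and ZsGreen-positive cells of regions chosen by Pdpn and SMA staining were collected, per the labels' protocols. The authors deposited raw counts per probe, with no normalization, judged from the values; the steps from reads to counts are not given in the sources used here. Of 12 areas mentioned by the labels, 11 have both a sample record and a count column and entered. Per the file headers, probes were placed on GRCm38.p6; gene extents, promoters and microRNAs are from RefSeq on the same build.

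Endogenous probes kept by filterByExpr (19935) were tested with edgeR 4.0.16 in R 4.3.3 (TMM, quasi-likelihood, two-sided, Benjamini-Hochberg over all probes). Each SE is the one implied by that p. DESeq2 1.42.0 and limma-voom (limma 3.58.1) were alternatives, and the edgeR step was tested on simulated data. Permutation tests ran over all 462 group choices on log2 CPM with a prior count of 2. The named genes are the 10 members, the 2 of smallest p from each of 12 lists, Acta2, Pdpn, Postn and the 5 closest patterns; platelet genes were added after their values were seen. Members and lists were chosen with earlier results of these data known. Replicates are regions, which may share a mouse.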

Additional observations from a re-analysis of the deposited data

Results flagged for a closer look

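Egfl7 was 153 CPM in Pdpn-adjacent region 8, far from the next highest of the 6 Pdpn-adjacent regions, 69.8 CPM in region 7. The gap made up 0.700 of the group's range, against a 95% critical value of 0.625. It was the only 1 of 20 groups of member values to stand out in this way, and chance alone flags about 1 in 20. The value rests on 46 counts, and region 8 also had the highest Kdr value of the 11 regions, 96.3 CPM.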

How the results depend on the processing

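The members' median log2 fold change of -0.47 stayed below 0 in all 21 alternative fits, from -0.59 to -0.29, the last with the negative-probe share as a covariate; limma-voom moved the median of all probes to 0.14. Of the 204 member fold changes with an adjusted p in those fits, 198 kept their direction and side of the threshold, 4 reversed and 2, both of Vwf, passed it; the other 6, in DESeq2, had no adjusted p and kept their direction. Kdr was -0.08 without regions 4 and 8 and ran from -0.21 to 0.56 over fits without 1 region, where Plvap ran from -1.37 to 0.18. The 2 probes called over all became 1 with upper-quartile or negative-probe scaling or without regions 2, 3 and 11, 37 with the negative-probe share as a covariate, 13 without regions 4 and 8, 14 without regions 3 and 7, 17 with DESeq2, 0 with limma-voom, and 1 to 53 (without SMA-adjacent region 5) over fits without 1 region. The members past the threshold numbered 1 with DESeq2 and 0 to 1 without 1 region. The cause of these shifts was not tested. Of 84 exact permutation p-values under alternatives for the 6 members under 0.05, 28 moved above it; for Kdr the difference turned upward without regions 2, 3 and 11 (exact permutation p = 0.268) and without region 3, in a range of 0.254 to 0.778 over tests without 1 region. Depth limits regions 2, 3 and 11, where members stand at few counts. No paired analysis was possible because no label ties a region to a mouse.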
